A study of Mus musculus with 8 samples.

Results

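Monoamine and acetylcholine receptors are the membrane proteins through which serotonin, dopamine, noradrenaline, adrenaline, histamine and acetylcholine act on cells. Their genes were taken as the protein-coding genes with symbols of the types Htr1 to Htr7, Drd3 to Drd5, Adra1, Adra2, Adrb, Chrm1 to Chrm5, Chrna, Chrnb, Chrnd, Chrne, Chrng and Hrh1 to Hrh4. The rule found 51 genes among the 48709 genes counted: 14 for serotonin receptors, 3 for dopamine, 6 for alpha-adrenergic, 3 for beta-adrenergic, 5 for muscarinic, 16 for nicotinic and 4 for histamine receptors. The dopamine receptor genes Drd1 and Drd2 lie outside the rule and are given separately. The cortex of 4 dcKO_hGFAP-Cre mice was compared with that of 4 control mice at P3 (postnatal day 3) by RNA sequencing, to ask how the transcriptome changes when BAF155 and BAF170, scaffold subunits of the BAF chromatin remodeling complex, are deleted. The dissected tissue is named in the methods as the dorsal telencephalon (dTel), and both groups had the C57BL/6J strain background. The dcKO_hGFAP-Cre mice carried floxed alleles on both copies of the BAF155 gene (Smarcc1) and of the BAF170 gene (Smarcc2), together with hGFAP-Cre. The controls are given in the methods as carrying 1 floxed and 1 intact allele of each gene with the same Cre, whereas the labels call them wild types. In hGFAP-Cre mice a human GFAP promoter drives the recombinase in dTel progenitors, so cells that reach the cortex from elsewhere, such as interneurons, microglia and vessel cells, are not expected to descend from recombined dTel progenitors.

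Most of these receptors span the membrane in a bundle of helices and act through G proteins: Gs raises cyclic AMP through adenylyl cyclase, Gi/o lowers it, and Gq/11 activates phospholipase C. The nicotinic receptors and the serotonin receptor 5-HT3 are instead ion channels built of subunits around a central pore. In the cortex the amines arrive along fibers from the brainstem and hypothalamus, acetylcholine comes mainly from the basal forebrain, and the receptors set the excitability and the maturation of cortical neurons.

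Total counts lay between 21126713 and 32110285 per sample. Expression is given in CPM, the count scaled to the size of the library after TMM normalization, and 3 counts in a sample corresponded to 0.0906 CPM in the deepest sample and 0.148 CPM in the shallowest. No pair of replicates of a group was alike within the sampling noise of the counts, and each was counted as 1 sample. Smarcc1 was at 144, 162, 170.5 and 160.4 CPM in control replicates 1 to 4 and 79.4, 73.6, 86.9 and 84.7 CPM in dcKO_hGFAP-Cre replicates 1 to 4. Smarcc2 was at 500.3, 472, 489 and 469 CPM in control and 291, 266, 256 and 319 CPM in dcKO_hGFAP-Cre replicates 1 to 4. For both genes every dcKO_hGFAP-Cre sample lay below every control as the labels have it, and the counts cover the whole gene, including exons outside the floxed part. The log2 fold change was -0.97 (edgeR: standard error 0.08, adjusted p = 5.44e-06) for Smarcc1 and -0.77 (edgeR: standard error 0.08, adjusted p = 2.28e-05) for Smarcc2.

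The tissue label was examined with 7 neuronal genes, all of them detected in every sample. Neurod6, a transcription factor gene of glutamatergic cortical neurons, was at 378, 418, 431 and 434 CPM in control and 83.8, 89.1, 133 and 97.6 CPM in dcKO_hGFAP-Cre replicates 1 to 4. Map2, a dendritic microtubule protein gene, was at 1795 to 2203 CPM in control and 1778 to 1959 CPM in dcKO_hGFAP-Cre samples. Of the 7 genes, 6 were lower in dcKO_hGFAP-Cre at an adjusted p under 0.05 (85.7%, beside 18.9% of all genes tested). Neurod6 had a log2 fold change of -2.04 (edgeR: standard error 0.13, adjusted p = 1.37e-06). Map2 did not pass the test, at -0.07 (edgeR: standard error 0.07, adjusted p = 0.476). The 7 genes summed to 7046, 7164, 7393 and 7715 CPM in control and 4945.5, 5146, 5440 and 5243 CPM in dcKO_hGFAP-Cre replicates 1 to 4. The libraries of dcKO_hGFAP-Cre differed among themselves in several marker lists, among them those of the choroid plexus and of astrocytes and, as given further on, of the striatum and the leptomeninges. Ttr, the transthyretin gene of the choroid plexus, was at 584, 1128, 15.8 and 1.72 CPM in dcKO_hGFAP-Cre replicates 1 to 4 and at no more than 9.37 CPM in any control, so that replicates 1 and 2 stood apart. Gfap, the intermediate filament gene of astrocytes, was at 24.2, 32.2, 273 and 26.2 CPM in the same samples and at 79.3 to 89.5 CPM in control, so that replicate 3 stood apart. Receptor counts are therefore also given without these libraries.

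Of the 51 receptor genes, 35 passed the filter on low counts and were tested. By edgeR's quasi-likelihood test, with Benjamini and Hochberg's adjustment over all 16525 genes tested and an adjusted p under 0.05, 15 receptor genes were lower and 5 were higher in dcKO_hGFAP-Cre cortex. Over all genes tested, 18.9% were lower and 18.6% were higher by the same test. The median log2 fold change was -0.58 over the 35 receptor genes and 0.02 over all genes tested. The lower genes were Htr5b, Chrna5, Hrh3, Chrna2, Chrm5, Chrna7, Chrm1, Htr5a, Adra2a, Chrna4, Htr2a, Adra1b, Chrm3, Adrb1 and Chrnb2, and the higher ones Htr2c, Htr1d, Chrnb1, Adra1a and Adra2c. In 19 of these 20 genes the groups did not overlap in CPM, Adra1a being the exception; over all genes tested, 17.7% had every dcKO_hGFAP-Cre sample below every control and 16.7% every one above. Each lane held both groups: lane 5 replicates 1 and 2, lane 6 replicate 3 and lane 7 replicate 4. The direction of all 20 genes was the same within each lane. The last 2 lanes hold 1 sample of each group and allow no test. For the 19 genes whose groups did not overlap, that separation fixes the direction within every lane. The agreement between lanes therefore adds no support for them. In bulk tissue, fewer cells of a type and less RNA per cell cannot be told apart, and this holds for every difference given here.

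Without dcKO_hGFAP-Cre replicates 1 and 2, 37 receptor genes were tested, of which 11 were lower and 2 were higher. Of the 17229 genes tested in that comparison, 1581 were lower and 1388 higher. The 7 genes that no longer passed the test were Adra1a (log2 fold change 0.85 with all samples and 0.93 without these), Adra1b (-0.68 and -0.50), Adra2c (0.57 and 0.55), Chrm5 (-1.08 and -0.95), Chrna2 (-1.14 and -0.996), Chrnb1 (0.87 and 0.72) and Htr2a (-0.74 and -0.62). That comparison rests on 2 dcKO_hGFAP-Cre samples, and the cause of the lost calls was not tested. Without dcKO_hGFAP-Cre replicate 3, 34 receptor genes were tested, of which 16 were lower and 7 were higher. Of the 16489 genes tested in that case, 3258 were lower and 3125 higher. All 20 receptor genes called with all samples were called in the same direction as before.

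**Figure D1:**
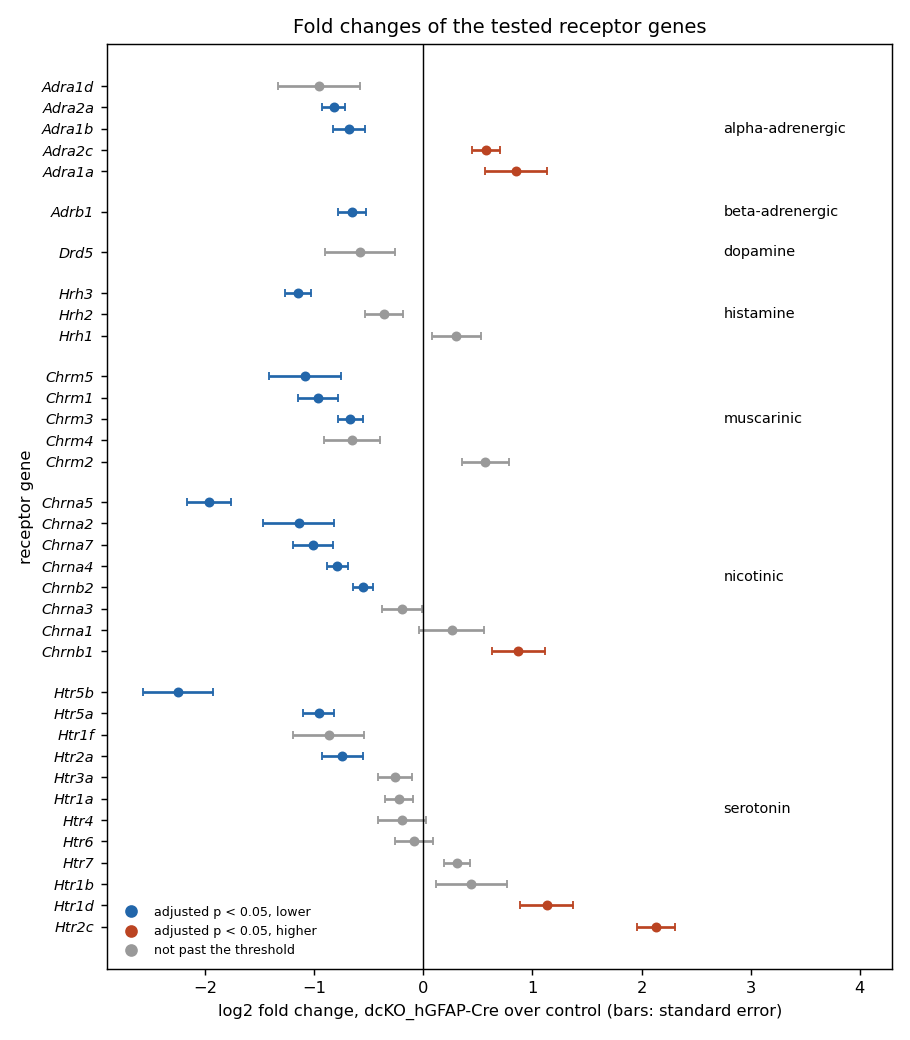
Log2 fold changes of the 35 tested receptor genes, dcKO_hGFAP-Cre over control, with bars for the standard error, grouped by receptor family; colors mark genes past the adjusted threshold. Htr2c lies farthest to the right at 2.13 and Htr5b farthest to the left at -2.25.

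Receptors coupled to Gq/11 held the largest rise. Of 10 such genes 9 were tested, with 5 lower (55.6%, beside 18.9% of all genes tested) and 2 higher (22.2%, beside 18.6%). The median log2 fold change of the 9 was -0.68. Htr2c encodes the 5-HT2C receptor, which is known from the choroid plexus as well as from neurons. It lies at chrX:146962513-147197277, forward strand (GRCm38). Htr2c was at 8.93, 9.37, 7.87 and 5.55 CPM in control replicates 1 to 4 and 36.9, 40.9, 27.1 and 33.8 CPM in dcKO_hGFAP-Cre replicates 1 to 4. The lowest dcKO_hGFAP-Cre sample was far above the highest control. The difference was 4.39-fold, a log2 fold change of 2.13 (edgeR: standard error 0.17, adjusted p = 3.90e-06), and the log2 ratio was 2.09, 1.79 and 2.60 within lanes 5, 6 and 7. Htr2a, the gene of the related 5-HT2A receptor of cortical pyramidal neurons, moved the other way. It was at 5.57, 7.25, 5.18 and 5.87 CPM in control and 3.76, 2.71, 3.17 and 4.53 CPM in dcKO_hGFAP-Cre replicates 1 to 4, every dcKO_hGFAP-Cre sample below every control. Its log2 fold change was -0.74 (edgeR: standard error 0.19, adjusted p = 0.00812). Per kb of exon, the ratio of Htr2c to Htr2a was 0.964, 0.777, 0.913 and 0.569 in control and 5.89, 9.07, 5.14 and 4.48 in dcKO_hGFAP-Cre replicates 1 to 4, so that Htr2a had the higher level per length in all 4 controls and Htr2c in all 4 dcKO_hGFAP-Cre samples. This ratio and the 4 others given below were chosen after their values were seen, out of 41 pairs of receptor genes compared. None of the pairs passed the exact permutation test after adjustment over them, but with 4 and 4 samples its p cannot be below 0.0286, so no pair could have passed by its own separation and nothing is read from this. The third gene of the group, Htr2b, had 2 to 6 counts per sample and was not tested.

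The choroid plexus markers were read beside Htr2c. Of the 10 markers 8 were tested, and 2 of them, Otx2 and Clic6, were higher in dcKO_hGFAP-Cre (25%, beside 18.6% of all genes tested) with none lower. Their summed level was 12.5, 17.8, 9.13 and 9.20 CPM in control and 633, 1199, 26.7 and 13.2 CPM in dcKO_hGFAP-Cre replicates 1 to 4, the most abundant gene by mean CPM being Sostdc1 in control and Ttr in dcKO_hGFAP-Cre. The sum was raised in dcKO_hGFAP-Cre replicates 1 and 2, above the controls in replicate 3 and within the control range in replicate 4. Kcnj13 had no count in control replicate 2, and Tmem72 none in control replicate 3 and dcKO_hGFAP-Cre replicate 4. Without replicates 1 and 2 the log2 fold change of Htr2c was 1.95, adjusted p = 3.08e-04 (edgeR). In replicate 4, Otx2 and Prlr alone of the 10 markers were above the highest control. Otx2, a transcription factor gene, was at 8.55, 13.6, 3.07 and 3.95 CPM in dcKO_hGFAP-Cre replicates 1 to 4 and at no more than 0.276 CPM in control. Cajal-Retzius markers also moved: 6 of 8 were higher (75%, beside 18.6% of all genes tested) and none was lower. Their sum was 298, 399, 483 and 471 CPM in control and 533, 612, 438 and 589 CPM in dcKO_hGFAP-Cre replicates 1 to 4. The sum in dcKO_hGFAP-Cre replicate 3 lay within the control range, and Reln was the most abundant gene. The part of the choroid plexus and of the Cajal-Retzius markers in the rise of Htr2c was not tested.

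**Figure D2:**
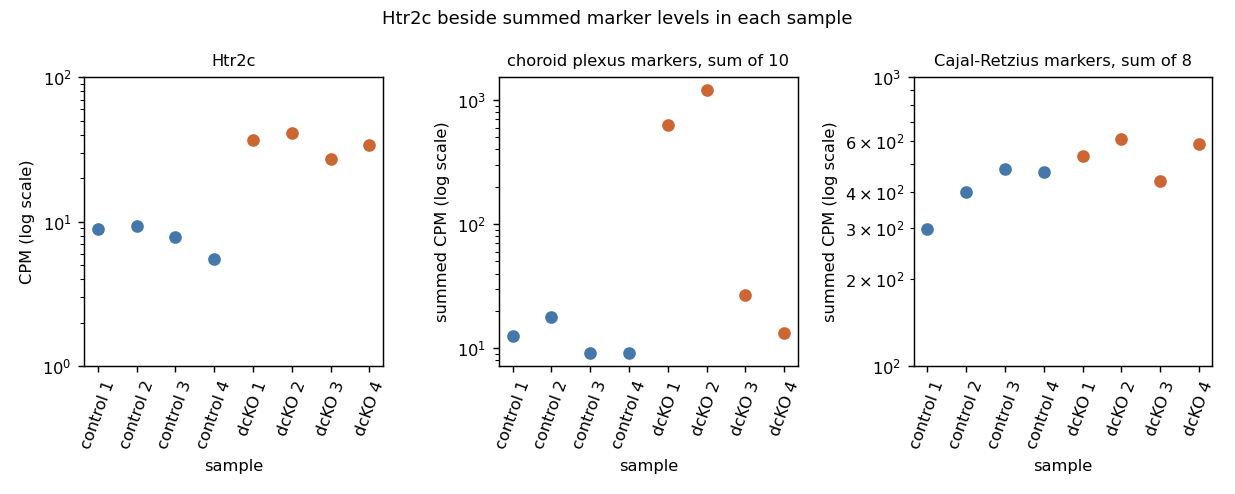
Htr2c in CPM, the summed CPM of 10 choroid plexus markers and the summed CPM of 8 Cajal-Retzius markers in each of the 8 samples, on log scales, with controls in blue and dcKO_hGFAP-Cre (dcKO) in orange. Htr2c is at 27.1 CPM or more in all 4 dcKO_hGFAP-Cre samples, and the choroid plexus sum ranges from 13.2 to 1199 CPM among them.

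The promoter of Htr2c is shown as the window of the receptor gene with the largest rise, in the RefSeq sequence of build GRCm38.p6 (chrX:146962263-146962562, forward strand), from 250 bases before to 50 after the annotated start. Capitals mark a CCAAT box (CCAAT, here on the opposite strand as ATTGG), and no GC box (GGGCGG) and no TATA box (TATAAA) was found on either strand. Of all 32851 promoter windows of this length, 37.4% held CCAAT, 35.7% held GGGCGG and 13.6% held TATAAA on either strand.
Htr2c: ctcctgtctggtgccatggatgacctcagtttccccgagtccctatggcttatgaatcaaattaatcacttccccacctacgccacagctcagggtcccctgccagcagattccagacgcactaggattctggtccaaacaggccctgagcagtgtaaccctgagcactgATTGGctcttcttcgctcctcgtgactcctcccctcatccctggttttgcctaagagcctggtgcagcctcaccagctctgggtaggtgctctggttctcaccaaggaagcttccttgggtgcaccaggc

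The other Gq/11-coupled receptor genes were the muscarinic genes Chrm1, Chrm3 and Chrm5, the alpha1-adrenergic ones and Hrh1. Chrm1 encodes the M1 receptor, the main muscarinic receptor of forebrain pyramidal neurons, and was at 67.3, 81.4, 92.8 and 83.3 CPM in control replicates 1 to 4 and 49.9, 25.7, 44.5 and 46.0 CPM in dcKO_hGFAP-Cre replicates 1 to 4. The highest dcKO_hGFAP-Cre sample remained below the lowest control, and replicate 2 was the lowest. The log2 fold change was -0.97 (edgeR: standard error 0.18, adjusted p = 0.00256). Chrm3, the gene of the M3 receptor, was at 30.8, 32.3, 25.8 and 23.3 CPM in control and 18.5, 16.3, 18.3 and 17.4 CPM in dcKO_hGFAP-Cre replicates 1 to 4. Here too the groups were apart, and the dcKO_hGFAP-Cre samples lay close together; the log2 fold change was -0.67 (edgeR: standard error 0.12, adjusted p = 9.22e-04). Chrm5, the M5 receptor gene, was scarce, with 7 to 40 counts per sample. It was at 0.644, 0.887, 1.33 and 0.590 CPM in control and 0.428, 0.297, 0.409 and 0.483 CPM in dcKO_hGFAP-Cre replicates 1 to 4. Its log2 fold change of -1.08 (edgeR: standard error 0.33, adjusted p = 0.0212) was not past the test without some libraries: it was -0.78, adjusted p = 0.0962 without control replicate 3 and -0.97, adjusted p = 0.0595 without dcKO_hGFAP-Cre replicate 2 (edgeR).

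The alpha1-adrenergic receptor genes, whose products respond to noradrenaline, did not share a direction. Adra1b was at 9.30, 8.68, 8.50 and 9.82 CPM in control and 4.79, 4.92, 6.35 and 6.52 CPM in dcKO_hGFAP-Cre replicates 1 to 4, with all dcKO_hGFAP-Cre samples below the controls and a log2 fold change of -0.68 (edgeR: standard error 0.14, adjusted p = 0.00301). Adra1a was at 3.54, 2.61, 1.99 and 1.98 CPM in control and 5.13, 3.39, 2.90 and 6.67 CPM in dcKO_hGFAP-Cre replicates 1 to 4. Here dcKO_hGFAP-Cre replicates 2 and 3 lay below control replicate 1, so the groups overlapped. The log2 fold change of Adra1a was 0.85 (edgeR: standard error 0.28, adjusted p = 0.0315), and the gene no longer passed the test without control replicate 2 (0.86, adjusted p = 0.0693), 3 (0.75, adjusted p = 0.0947) or 4 (0.74, adjusted p = 0.0948), or without dcKO_hGFAP-Cre replicate 1 (0.78, adjusted p = 0.0893) or 4 (0.60, adjusted p = 0.0912; all edgeR). Adra1d had a log2 fold change of -0.96 (edgeR: standard error 0.37, adjusted p = 0.0605) and did not pass the test; it passed with the lane as a block (-0.89, adjusted p = 0.0281) and without control replicate 1 (-1.12, adjusted p = 0.0356) or 2 (-1.16, adjusted p = 0.0286), but not without control replicate 3 (-0.57, adjusted p = 0.254), the highest control, or without dcKO_hGFAP-Cre replicates 1 and 2 (-0.73, adjusted p = 0.317; all edgeR). The histamine receptor gene Hrh1, also of the Gq/11 class, had a log2 fold change of 0.30 (edgeR: standard error 0.23, adjusted p = 0.310).

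**Figure D3:**
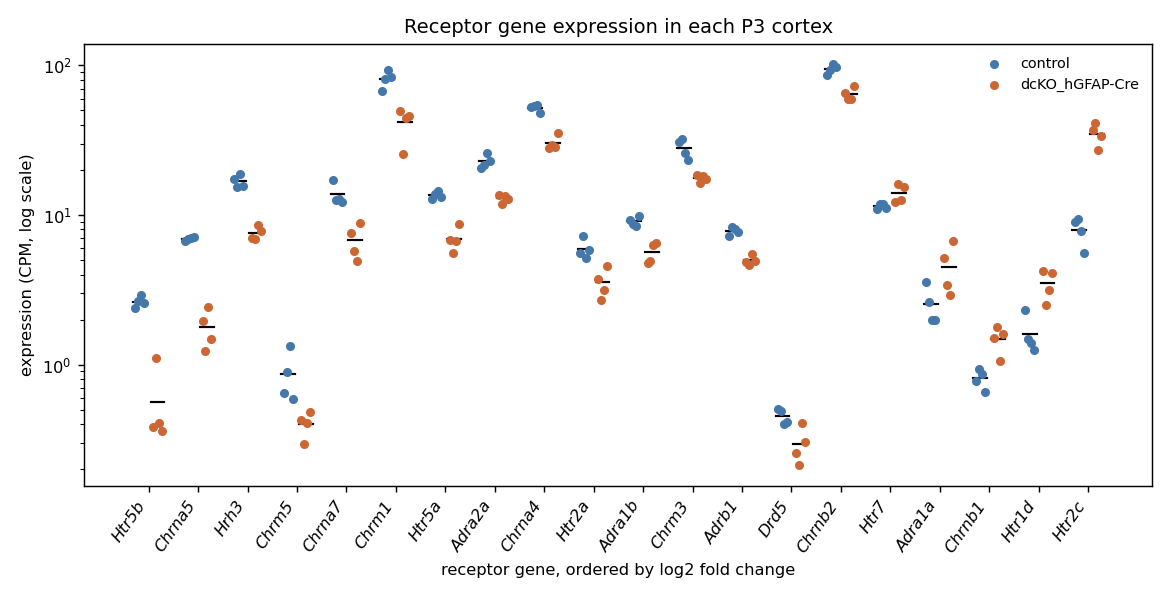
Expression in CPM on a log scale of 20 receptor genes in each sample, controls in blue and dcKO_hGFAP-Cre in orange, with bars for the group means, ordered from the most negative to the most positive log2 fold change. The groups are apart for Htr5b, Chrna5 and Hrh3 at the left and for Htr2c at the right, and overlap for Drd5 and Adra1a.

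Receptors coupled to Gi/o, which lower cyclic AMP and often sit on nerve endings, comprised 15 genes, of which 11 were tested. Of the 11, 4 were lower (36.4%, beside 18.9% of all genes tested) and 2 were higher (18.2%, beside 18.6%). The median log2 fold change of the class was -0.66. The 2 genes of 5-HT5 receptors, counted here with this class, were both lower. Htr5b, at chr1:121509842-121528465, reverse strand, was at 2.39, 2.66, 2.92 and 2.57 CPM in control and 0.385, 1.10, 0.409 and 0.362 CPM in dcKO_hGFAP-Cre replicates 1 to 4. Replicate 2 was the highest of the dcKO_hGFAP-Cre samples and was still below every control. The fall was 4.75-fold, with a log2 fold change of -2.25 (edgeR: standard error 0.32, adjusted p = 2.37e-04), the most negative among the receptor genes, on 9 to 26 counts in dcKO_hGFAP-Cre samples. Within lanes 5, 6 and 7 the log2 ratio was -1.77, -2.84 and -2.83. Htr5a was at 12.8, 13.9, 14.4 and 13.2 CPM in control and 6.84, 5.59, 6.69 and 8.69 CPM in dcKO_hGFAP-Cre replicates 1 to 4. Each dcKO_hGFAP-Cre sample was well below each control, and the log2 fold change was -0.96 (edgeR: standard error 0.14, adjusted p = 2.66e-04). Per kb of exon, Htr5b had 0.518, 0.532, 0.565 and 0.541 of the level of Htr5a in control and 0.156, 0.547, 0.170 and 0.116 of it in dcKO_hGFAP-Cre replicates 1 to 4, where replicate 2 alone resembled the controls.

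Hrh3 encodes the H3 receptor, which restrains the release of histamine and other transmitters, and was at 17.4, 15.3, 18.8 and 15.6 CPM in control replicates 1 to 4 and 7.01, 6.95, 8.53 and 7.76 CPM in dcKO_hGFAP-Cre replicates 1 to 4. The groups were far apart and the samples of each lay close together. The log2 fold change was -1.15 (edgeR: standard error 0.12, adjusted p = 2.62e-05). Opposite Hrh3 lies Gm17180, which shares 349 bases of exon with it and was at no more than 0.444 CPM in any sample.

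Adra2a and Adra2c, genes of alpha2-adrenergic receptors that act as brakes on noradrenaline release and on neurons, went in opposite directions. Adra2a was at 20.8, 21.5, 26.1 and 22.9 CPM in control and 13.5, 11.9, 13.5 and 12.8 CPM in dcKO_hGFAP-Cre replicates 1 to 4. Adra2c was at 9.99, 7.39, 7.64 and 7.60 CPM in control and 11.2, 13.5, 12.3 and 11.5 CPM in dcKO_hGFAP-Cre replicates 1 to 4. Neither gene had overlapping groups. Their log2 fold changes were -0.82 (edgeR: standard error 0.11, adjusted p = 1.19e-04) and 0.57 (edgeR: standard error 0.13, adjusted p = 0.00508). Per kb of exon the ratio of Adra2c to Adra2a was 0.675, 0.481, 0.411 and 0.465 in control and 1.16, 1.59, 1.28 and 1.26 in dcKO_hGFAP-Cre replicates 1 to 4, so that Adra2a had the higher level per length in all 4 controls and Adra2c in all 4 dcKO_hGFAP-Cre samples. Adra2b had 2 to 15 counts and was not tested.

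Among the 5-HT1 receptor genes of the same class, Htr1d was higher in dcKO_hGFAP-Cre. The 5-HT1D receptor is an autoreceptor on serotonergic and other endings. Htr1d was at 2.30, 1.48, 1.39 and 1.25 CPM in control and 4.23, 2.50, 3.14 and 4.11 CPM in dcKO_hGFAP-Cre replicates 1 to 4. The lowest dcKO_hGFAP-Cre sample was only slightly above the highest control, which was replicate 1, and the log2 fold change was 1.13 (edgeR: standard error 0.24, adjusted p = 0.00337). Htr1a, Htr1b and Htr1f did not pass the test, with log2 fold changes of -0.22 (edgeR: standard error 0.13, adjusted p = 0.198), 0.44 (edgeR: standard error 0.32, adjusted p = 0.312) and -0.87 (edgeR: standard error 0.33, adjusted p = 0.0529). Htr1f passed with the lane as a block (-0.85, adjusted p = 0.0389) and without control replicate 3 (-1.06, adjusted p = 0.0297) or dcKO_hGFAP-Cre replicate 4 (-1.06, adjusted p = 0.0358), but not without control replicate 1 (-0.54, adjusted p = 0.165; all edgeR), the highest control at 2.62 CPM. The Gi/o-coupled muscarinic genes Chrm2 and Chrm4 had log2 fold changes of 0.57 (edgeR: standard error 0.22, adjusted p = 0.0610) and -0.66 (edgeR: standard error 0.26, adjusted p = 0.0610) and did not pass either. Chrm4 passed with the lane as a block (-0.64, adjusted p = 0.0346) and without control replicate 1 (-0.87, adjusted p = 0.00480) or dcKO_hGFAP-Cre replicate 3 (-0.82, adjusted p = 0.0256), and was farthest from passing, with 1 library left out, without control replicate 3 (-0.55, adjusted p = 0.164; all edgeR). Chrm2 was at 20.8, 17.2, 9.65 and 21.3 CPM in dcKO_hGFAP-Cre replicates 1 to 4, and replicate 3 alone was within the control range of 9.20 to 12.9 CPM. Without replicate 3 the gene passed (0.77, adjusted p = 9.50e-04), and without replicate 1 it did not (0.47, adjusted p = 0.161, both edgeR). It passed under 3 alternatives, among them scaling by library totals (0.69, adjusted p = 0.0270, edgeR), and not under the other 15. Drd3, Drd4 and Hrh4 had 0 to 18 counts per sample and were not tested.

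Promoter windows were in the RefSeq table for 38 of the 51 receptor genes, 12 of them lower and 4 higher. A stretch of the RE1 element, which is bound by the repressor REST, was searched for on both strands as GACAGCGCC, the right part of that element, after the windows and the fold changes had been read. It was found in 0.326% of all 32851 windows and in 2 of the 38 receptor genes, Hrh3 and Htr5a, which were both lower in dcKO_hGFAP-Cre; since the letters were taken from these 2 windows, the count is a description. The windows of these 2 genes are shown for that reason, with RE1 parts (GGCGCTGTC when on the opposite strand), GC boxes (GGGCGG or CCGCCC, overlapping ones included) and CCAAT boxes in capitals. The window of Hrh3 lies at chr2:180104358-180104657, reverse strand, and that of Htr5a at chr5:27841697-27841996, forward strand. The window of Hrh3 held 5 GC boxes, 1 CCAAT box and 47 CG dinucleotides, and that of Htr5a none of the boxes and 14 CG dinucleotides, where the median was 7 over all windows and 13.5 over the 46 windows of receptor genes. Such matches describe the letters of the windows and are not binding sites.
Hrh3: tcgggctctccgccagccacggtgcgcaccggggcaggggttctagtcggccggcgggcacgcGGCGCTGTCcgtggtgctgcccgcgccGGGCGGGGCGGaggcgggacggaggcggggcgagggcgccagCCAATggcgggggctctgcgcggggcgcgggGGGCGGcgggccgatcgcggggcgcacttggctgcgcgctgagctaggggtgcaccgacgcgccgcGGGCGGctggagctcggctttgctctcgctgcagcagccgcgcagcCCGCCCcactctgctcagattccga
Htr5a: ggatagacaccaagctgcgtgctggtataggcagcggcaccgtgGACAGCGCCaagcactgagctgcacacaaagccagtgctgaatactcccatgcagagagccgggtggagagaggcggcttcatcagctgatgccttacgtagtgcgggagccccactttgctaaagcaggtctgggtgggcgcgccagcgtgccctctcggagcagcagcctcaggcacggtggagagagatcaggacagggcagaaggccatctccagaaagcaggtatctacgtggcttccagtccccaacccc

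Receptors coupled to Gs raise cyclic AMP. Of 8 genes 6 were tested, with 1 lower (16.7%, beside 18.9% of all genes tested), none higher and a median log2 fold change of -0.28. Adrb3, a beta-adrenergic receptor gene, had 4 to 19 counts per sample and was not tested. The lower gene was Adrb1, which encodes the beta1-adrenergic receptor. It was at 7.27, 8.28, 8.001 and 7.74 CPM in control and 4.83, 4.62, 5.53 and 4.89 CPM in dcKO_hGFAP-Cre replicates 1 to 4. The samples of each group lay within a narrow range and the groups were apart, with a log2 fold change of -0.65 (edgeR: standard error 0.13, adjusted p = 0.00194). Htr7, the 5-HT7 receptor gene, was at 10.9, 11.8, 11.8 and 11.1 CPM in control and 12.1, 16.2, 12.7 and 15.5 CPM in dcKO_hGFAP-Cre replicates 1 to 4. All dcKO_hGFAP-Cre samples were above all controls, replicates 2 and 4 most, but the log2 fold change of 0.31 (edgeR: standard error 0.12, adjusted p = 0.0623) did not pass the threshold. It passed with scaling by library totals (0.43, adjusted p = 0.0124), with a filter at a mean of 1 CPM (0.33, adjusted p = 0.0472) and without dcKO_hGFAP-Cre replicate 1 (0.37, adjusted p = 0.0485) or 3 (0.36, adjusted p = 0.0408), and was farthest from passing, with 1 library left out, without dcKO_hGFAP-Cre replicate 2 (0.23, adjusted p = 0.185; all edgeR). Htr4, Htr6 and Hrh2 had log2 fold changes of -0.20 (edgeR: standard error 0.22, adjusted p = 0.509), -0.09 (edgeR: standard error 0.18, adjusted p = 0.732) and -0.36 (edgeR: standard error 0.17, adjusted p = 0.119).

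Drd5, the gene of the D5 receptor, was the only one of the 3 dopamine receptor genes under the rule that was tested. It was at 0.506, 0.493, 0.398 and 0.417 CPM in control and 0.257, 0.212, 0.409 and 0.302 CPM in dcKO_hGFAP-Cre replicates 1 to 4, with 5 to 12 counts per sample and overlapping groups, and its log2 fold change was -0.58 (edgeR: standard error 0.32, adjusted p = 0.174). The more abundant dopamine receptor genes were outside the rule. Drd1 was at 18.0, 23.8, 16.7 and 19.4 CPM in control and 20.2, 7.58, 28.7 and 12.3 CPM in dcKO_hGFAP-Cre replicates 1 to 4, with a log2 fold change of -0.17 (edgeR: standard error 0.37, adjusted p = 0.742). Drd2 was at 1.24, 2.91, 2.06 and 1.42 CPM in control and 10.6, 2.46, 12.1 and 6.91 CPM in dcKO_hGFAP-Cre replicates 1 to 4, where dcKO_hGFAP-Cre replicate 2 lay within the control range and the other 3 above it, and its log2 fold change was 2.08 (edgeR: standard error 0.48, adjusted p = 0.00984). Both belong to a list of 12 striatal projection neuron markers, of which 8 were higher in dcKO_hGFAP-Cre (66.7%, beside 18.6% of all genes tested). None was lower, beside 18.9% of all genes tested. In 5 of the 12 every dcKO_hGFAP-Cre sample was above every control, as in 16.7% of all genes tested. The summed level of that list was 544, 657, 542 and 509.9 CPM in control and 1296, 727, 1284 and 938 CPM in dcKO_hGFAP-Cre replicates 1 to 4, Meis2 being the most abundant gene and none at 0. The part of these markers in the rise of Drd2 was not tested.

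Of the receptors that are ion channels, 9 of 18 genes were tested, with a median log2 fold change of -0.55. Of the 9, 5 were lower (55.6%, beside 18.9% of all genes tested) and 1 was higher (11.1%, beside 18.6%). All 5 lower genes belong to the neuronal nicotinic subunits, of which 9 are annotated and 6 were tested (median log2 fold change -0.90). The subunits alpha4 and beta2 form the most common nicotinic receptor of the brain. Their genes were also the most abundant of the family per kb of exon, Chrnb2 at 11.3 and Chrna4 at 10.4 CPM per kb in control. Chrna4 was at 52.7, 53.8, 53.9 and 48.1 CPM in control replicates 1 to 4 and 27.9, 29.2, 28.6 and 35.1 CPM in dcKO_hGFAP-Cre replicates 1 to 4. Chrnb2 was at 85.7, 92.9, 102 and 97.5 CPM in control and 65.3, 60.0, 59.6 and 72.6 CPM in dcKO_hGFAP-Cre replicates 1 to 4. In neither gene did the groups overlap, and dcKO_hGFAP-Cre replicate 4 had the highest level of its group in both. The log2 fold changes were -0.79 (edgeR: standard error 0.09, adjusted p = 6.41e-05) for Chrna4 and -0.55 (edgeR: standard error 0.09, adjusted p = 5.10e-04) for Chrnb2. Chrnb2 shares 1365 of 8380 exon bases with Adar on the opposite strand, and Adar had a log2 fold change of -0.09 (edgeR: standard error 0.08, adjusted p = 0.399).

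Chrna5 encodes alpha5, an accessory subunit that joins alpha4 and beta2 in receptors of deep-layer cortical neurons. It was at 6.72, 6.95, 7.01 and 7.08 CPM in control replicates 1 to 4 and 1.97, 1.23, 2.42 and 1.48 CPM in dcKO_hGFAP-Cre replicates 1 to 4. The controls lay close together, and the highest dcKO_hGFAP-Cre sample, replicate 3, was far below them. The fall was 3.90-fold, a log2 fold change of -1.96 (edgeR: standard error 0.20, adjusted p = 2.15e-05), with log2 ratios of -2.10, -1.53 and -2.26 within lanes 5, 6 and 7. Per kb of exon, Chrna5 had 0.205, 0.208, 0.209 and 0.236 of the level of Chrna4 in control and 0.113, 0.0677, 0.136 and 0.0677 of it in dcKO_hGFAP-Cre replicates 1 to 4, every dcKO_hGFAP-Cre ratio being below every control ratio.

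Chrna5 lies in a cluster with Chrna3 and Chrnb4 on chromosome 9, from 54980880 to 55048779 (GRCm38). Chrna3 encodes the alpha3 subunit of ganglionic and habenular receptors and was at 4.37, 5.08, 4.81 and 4.44 CPM in control and 3.21, 4.62, 3.31 and 5.19 CPM in dcKO_hGFAP-Cre replicates 1 to 4. Its groups overlapped, with a log2 fold change of -0.19 (edgeR: standard error 0.18, adjusted p = 0.433). Chrnb4, at 2 to 9 counts per sample, was not tested. The ratio of Chrna5 to Chrna3 per kb of exon was 2.59, 2.31, 2.45 and 2.68 in control and 1.03, 0.448, 1.23 and 0.480 in dcKO_hGFAP-Cre replicates 1 to 4, and every dcKO_hGFAP-Cre ratio was below every control ratio. Both annotated promoter windows of Chrna5 and the window of Chrna3 are shown because the genes share a cluster and Chrna5 was among the lower genes. They lie at chr9:54980630-54980929, forward strand, at chr9:54981238-54981537, forward strand, and at chr9:55026513-55026812, reverse strand (RefSeq, GRCm38.p6), and GC boxes are in capitals. The first window of Chrna5 held no GC box and 5 CG dinucleotides, the second 4 GC boxes and 25 CG dinucleotides, and that of Chrna3 held 1 GC box and 18 CG dinucleotides.
Chrna5 first window: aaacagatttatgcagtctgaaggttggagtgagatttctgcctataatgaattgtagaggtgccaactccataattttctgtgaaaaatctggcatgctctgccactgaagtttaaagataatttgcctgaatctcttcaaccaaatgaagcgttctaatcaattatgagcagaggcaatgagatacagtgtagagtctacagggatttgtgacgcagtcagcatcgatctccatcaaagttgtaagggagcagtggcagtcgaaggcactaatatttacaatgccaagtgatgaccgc
Chrna5 second window: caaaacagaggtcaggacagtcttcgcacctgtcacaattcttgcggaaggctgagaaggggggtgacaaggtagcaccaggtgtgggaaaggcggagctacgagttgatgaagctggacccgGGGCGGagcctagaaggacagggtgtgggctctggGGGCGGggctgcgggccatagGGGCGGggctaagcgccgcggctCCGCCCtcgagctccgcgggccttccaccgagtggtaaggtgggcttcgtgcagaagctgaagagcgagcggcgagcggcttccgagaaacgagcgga
Chrna3: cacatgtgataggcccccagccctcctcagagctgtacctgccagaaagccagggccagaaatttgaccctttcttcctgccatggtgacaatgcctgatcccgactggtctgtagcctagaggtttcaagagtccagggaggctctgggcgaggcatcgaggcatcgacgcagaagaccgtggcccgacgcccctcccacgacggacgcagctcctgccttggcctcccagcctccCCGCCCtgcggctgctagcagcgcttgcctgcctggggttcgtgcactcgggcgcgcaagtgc

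Chrna7 encodes alpha7, which forms receptors of its own with a high permeability to calcium. It was at 17.2, 12.6, 12.8 and 12.3 CPM in control and 7.52, 5.76, 4.95 and 8.88 CPM in dcKO_hGFAP-Cre replicates 1 to 4. Every dcKO_hGFAP-Cre sample was below every control, and control replicate 1 was well above the other controls. The log2 fold change was -1.01 (edgeR: standard error 0.19, adjusted p = 0.00125). Chrna2, with 4 to 18 counts per sample, had a log2 fold change of -1.14 (edgeR: standard error 0.32, adjusted p = 0.0157) and did not pass with DESeq2 (adjusted p = 0.0654). Chrna6, Chrna9, Chrnb3 and Chrnb4 had 0 to 9 counts per sample and were not tested, and Chrna10 had none in any sample.

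The nicotinic gene that rose belongs to the muscle type. Chrnb1, the beta1 subunit gene of the neuromuscular receptor, was at 0.782, 0.937, 0.863 and 0.660 CPM in control and 1.50, 1.78, 1.06 and 1.60 CPM in dcKO_hGFAP-Cre replicates 1 to 4. The groups were apart, with dcKO_hGFAP-Cre replicate 3 nearest to the controls, and the log2 fold change was 0.87 (edgeR: standard error 0.24, adjusted p = 0.0139). Chrna1, its partner subunit gene, was at 0.347 to 0.636 CPM over the 8 samples, with a log2 fold change of 0.26 (edgeR: standard error 0.30, adjusted p = 0.522). The subunit genes Chrne and Chrng had 0 to 10 counts, and Chrnd had none. Muscle markers were low: of 8, 5 were tested, 1 was lower (20%, near the 18.9% of all genes tested) and none higher, and their sum was 15.7, 14.3, 15.0 and 14.1 CPM in control and 14.5, 15.9, 14.3 and 14.2 CPM in dcKO_hGFAP-Cre replicates 1 to 4, Acta1 being the most abundant gene and Ckm and Myog lacking counts in some samples.

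**Figure D4:**
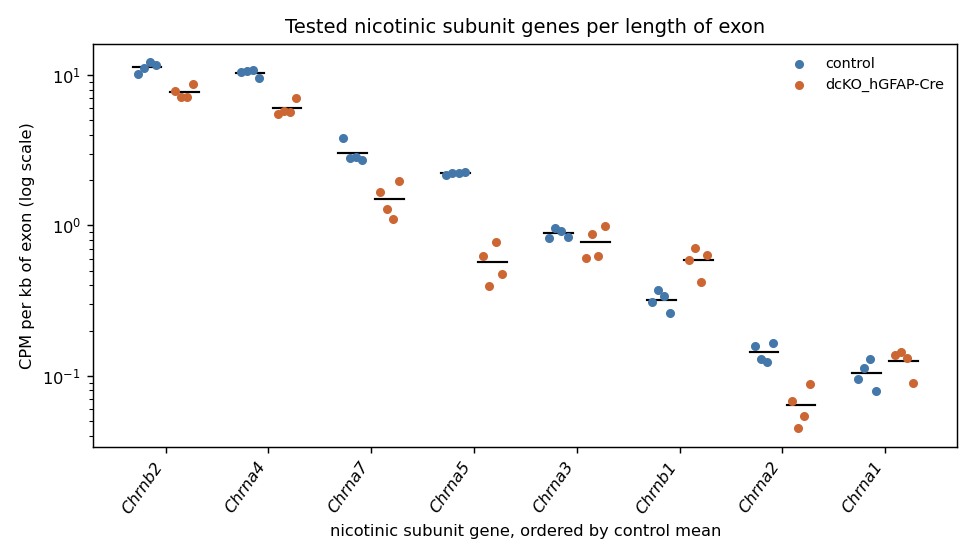
CPM per kb of exon on a log scale for the 8 tested nicotinic subunit genes in each sample, controls in blue and dcKO_hGFAP-Cre in orange, with bars for the group means. Chrnb2 and Chrna4 have the highest levels in both groups, and Chrna5 falls from a mean of 2.22 to 0.568 CPM per kb.

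Htr3a encodes a subunit of the 5-HT3 channel, which marks interneurons born in the caudal ganglionic eminence. It was at 6.86, 6.31, 7.67 and 6.73 CPM in control and 5.73, 7.12, 5.63 and 4.59 CPM in dcKO_hGFAP-Cre replicates 1 to 4. The groups overlapped, and the log2 fold change was -0.26 (edgeR: standard error 0.15, adjusted p = 0.197). Of 10 markers of these interneurons, Htr3a among them, 2 were lower and 2 were higher (20% each, near the 18.9% and 18.6% of all genes tested). Their summed level was 663, 754, 884 and 839 CPM in control and 739, 833, 653 and 824 CPM in dcKO_hGFAP-Cre replicates 1 to 4, with Cnr1 the most abundant gene by mean CPM in control, Reln in dcKO_hGFAP-Cre and none at 0. Htr3b, beside Htr3a on chromosome 9, had 0 to 4 counts per sample and was not tested.

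Levels between receptor genes can be compared only per length, here as CPM per kb of exon. In control cortex Chrm1 had the highest mean of all 51 genes, at 12.5 CPM per kb, followed by Chrnb2 and Chrna4, though the means of Chrm1 and Chrnb2 differed by less than the spread of Chrm1 between samples. In dcKO_hGFAP-Cre cortex Chrnb2 was at 7.68, Chrm1 at 6.40 and Chrna4 at 6.01 CPM per kb, the mean of Chrm1 differing from each of the others by less than its spread between samples. Within the serotonin family the control means of Htr1a, Htr7 and Htr3a, at 3.46, 3.35 and 3.31 CPM per kb, differed by less than the spread between samples, and Htr2c ranked from 9 to 10 of 14 genes in the controls. In dcKO_hGFAP-Cre replicates 1 to 4 Htr2c ranked 1, 2, 4 and 2, with a mean of 3.72 CPM per kb beside 4.15 for Htr7, and Htr5b went from ranks 5 to 7 to ranks 9 to 12. The highest genes of the other families in control were Adra2a with 4.72, Adrb1 with 2.31, Hrh3 with 5.34 and Drd5 with 0.144 CPM per kb, though Drd4, at 0.130, differed from Drd5 by less than the spread between samples.

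**Figure D5:**
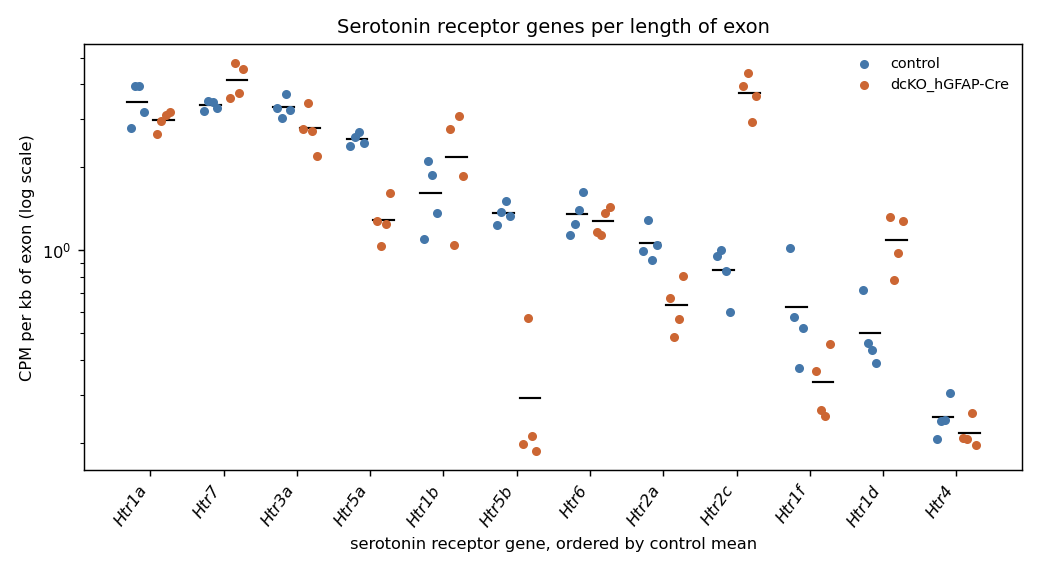
CPM per kb of exon on a log scale for the 12 tested serotonin receptor genes in each sample, controls in blue and dcKO_hGFAP-Cre in orange, with bars for the group means, ordered by the control mean. Htr2c moves from a mean of 0.850 to 3.72 CPM per kb, and Htr5b from 1.36 to 0.292.

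The neurons in which many of these receptors are known were examined through their markers. All 10 upper-layer neuron markers were lower in dcKO_hGFAP-Cre (100%, beside 18.9% of all genes tested). Their summed level was 1551, 1739, 1945 and 1971 CPM in control and 883, 874, 926 and 885 CPM in dcKO_hGFAP-Cre replicates 1 to 4. Lmo4 was the most abundant gene by mean CPM in dcKO_hGFAP-Cre and none was at 0. Of 12 deep-layer and subplate markers, 5 were lower (41.7%, beside 18.9%) and 1, Nxph4, was higher (8.33%, beside 18.6%). Their sums were 1254, 1205, 1142 and 1134 CPM in control and 971, 757, 986 and 983 CPM in dcKO_hGFAP-Cre replicates 1 to 4. Bcl11b was the most abundant and none was at 0. The sums of both lists were lower in every dcKO_hGFAP-Cre sample than in every control, as were the levels of all 15 lower receptor genes. The same held for 17.7% of all genes tested. The part of these markers in the lower receptor levels was not tested. Of 12 markers of thalamus, habenula and midbrain, 4 were higher (33.3%, beside 18.6% of all genes tested), namely Pou4f1, Gbx2, Lhx9 and Tcf7l2. Another 3 were lower (25%, beside 18.9%), namely Nwd2, Rora and Tph2. The sum of the 12 was 225, 236, 272 and 250.1 CPM in control and 128, 171, 140.2 and 162 CPM in dcKO_hGFAP-Cre replicates 1 to 4, with Nwd2 the most abundant gene in control and Slc17a6 in dcKO_hGFAP-Cre by mean CPM, and Gbx2 had no counts in control replicates 1 and 4. Nwd2 was at 128 to 182 CPM in control and 28.5 to 48.3 CPM in dcKO_hGFAP-Cre samples. The lower sum rests largely on this gene. The part of these markers in the receptor values was not tested either.

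Markers of other cells were read in the same way, and their part in the receptor values was not tested. Their counts stand beside 18.9% lower and 18.6% higher over all genes tested. Radial glia and astrocyte markers had 1 of 10 lower and none higher, with sums of 1988, 2098, 1990 and 2012 CPM in control and 1455, 1610, 2942 and 1290 CPM in dcKO_hGFAP-Cre replicates 1 to 4, Fabp7 being the most abundant. Oligodendrocyte precursor markers were lower in 8 of 8, with sums of 442, 465, 446 and 475 CPM in control and 252, 243, 315 and 236 CPM in dcKO_hGFAP-Cre replicates 1 to 4, led by Olig1 in control and Pdgfra in dcKO_hGFAP-Cre by mean CPM. Microglial markers were higher in 8 of 10, with sums of 182, 179.9, 149.6 and 140.1 CPM in control and 265, 304, 279 and 255 CPM in dcKO_hGFAP-Cre replicates 1 to 4, led by Csf1r. The sums of the last 2 lists did not overlap between the groups. Interneuron markers from the medial ganglionic eminence had 4 higher and 2 lower of 9 tested, with sums of 777, 836, 876 and 897 CPM in control and 828, 871, 868 and 839.7 CPM in dcKO_hGFAP-Cre replicates 1 to 4, the highest mean CPM being that of Satb1 in control and of Sst in dcKO_hGFAP-Cre. Endothelial markers had 4 of 10 lower, led by Cldn5 with sums of 208, 225, 271 and 239 CPM in control and 195, 176, 205 and 117 CPM in dcKO_hGFAP-Cre replicates 1 to 4. For pericyte and smooth muscle markers 2 of 10 were lower (20%, near the share over all genes), with sums of 275, 302, 289 and 248 CPM in control and 299.8, 282, 292 and 206 CPM in dcKO_hGFAP-Cre replicates 1 to 4, led by Rgs5. None of 8 leptomeningeal markers passed the test, and their sums of 62.3, 40.1, 124 and 43.9 CPM in control and 186, 59.5, 151 and 17.9 CPM in dcKO_hGFAP-Cre replicates 1 to 4, led by Col1a2, varied within both groups. None of 5 tested erythroid markers passed either, with sums of 73.2, 53.7, 68.0 and 62.2 CPM in control and 92.4, 130.1, 117 and 37.1 CPM in dcKO_hGFAP-Cre replicates 1 to 4, led by Hbb-bs.

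The genes that make, carry and break down the transmitters act largely in neurons whose cell bodies lie outside the cortex. For synthesis, 6 of 8 genes were tested, 2 were higher (Th, the tyrosine hydroxylase gene, and Pnmt) and 1 was lower (Tph2, the neuronal tryptophan hydroxylase gene). All of these called genes had means under 2 CPM and overlapping groups. The higher ones were 33.3% and the lower one 16.7% of the 6. Chat, the gene of choline acetyltransferase, was not tested. For transport, 8 of 11 were tested, with 1 lower and 1 higher (12.5% each, beside 18.9% lower and 18.6% higher over all genes tested). Slc29a4 encodes PMAT, a low-affinity carrier that takes up serotonin and dopamine, and was the most abundant of the list. It was at 204, 201, 244 and 242 CPM in control and 96.2, 108, 108 and 107 CPM in dcKO_hGFAP-Cre replicates 1 to 4. Its groups were far apart, with a log2 fold change of -1.08 (edgeR: standard error 0.09, adjusted p = 3.97e-06). Slc18a3, the vesicular acetylcholine transporter gene, had a log2 fold change of 1.44 (edgeR: standard error 0.44, adjusted p = 0.0231). It was at 2.18, 0.593, 1.74 and 0.725 CPM in dcKO_hGFAP-Cre replicates 1 to 4. Replicate 2 lay within the control range of 0.230 to 0.631 CPM.

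Of the 6 breakdown genes, 2 were higher and 2 lower (33.3% each, beside 18.6% higher and 18.9% lower over all genes tested). Maoa, which encodes the monoamine oxidase that prefers serotonin and noradrenaline, was at 74.0, 78.2, 65.5 and 71.5 CPM in control and 105, 109.7, 97.5 and 100.4 CPM in dcKO_hGFAP-Cre replicates 1 to 4. All dcKO_hGFAP-Cre samples were above the controls, with a log2 fold change of 0.51 (edgeR: standard error 0.08, adjusted p = 3.75e-04). Hnmt, the gene of the enzyme that inactivates histamine in the brain, was higher by 0.55 (edgeR: standard error 0.11, adjusted p = 0.00171) on the log2 scale. Ache, the acetylcholinesterase gene, was at 56.9, 57.1, 60.7 and 62.2 CPM in control and 35.4, 34.2, 42.1 and 43.1 CPM in dcKO_hGFAP-Cre replicates 1 to 4 and was lower in every dcKO_hGFAP-Cre sample, with a log2 fold change of -0.61 (edgeR: standard error 0.09, adjusted p = 3.92e-04). Maob, the gene of the other monoamine oxidase, had overlapping groups and a log2 fold change of -0.44 (edgeR: standard error 0.16, adjusted p = 0.0469). Among 9 genes for nicotinic receptor assembly and prototoxins, 8 were tested. Of these, 2 were lower (25%, beside 18.9% of all genes tested) and 1 was higher (12.5%, beside 18.6%). The prototoxin gene Lypd6 had a log2 fold change of -0.71 (edgeR: standard error 0.09, adjusted p = 1.23e-04), the related Lypd1 0.92 (edgeR: standard error 0.20, adjusted p = 0.00451), and Tmem35a, whose product (NACHO) helps to assemble nicotinic receptors, -0.21 (edgeR: standard error 0.07, adjusted p = 0.0294).

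Downstream of the receptors, 5 of 10 G protein alpha subunit genes were lower (50%) and 2 were higher (20%), with a median log2 fold change of -0.25. Over all genes tested, 18.9% were lower and 18.6% higher. Gna14, of the Gq/11 class, was at 0.184, 0.592, 0.266 and 0.243 CPM in control and 1.88, 2.42, 2.70 and 2.17 CPM in dcKO_hGFAP-Cre replicates 1 to 4. It was below 1 CPM in all controls and above 1 CPM in all dcKO_hGFAP-Cre samples, with a log2 fold change of 2.86 (edgeR: standard error 0.31, adjusted p = 3.59e-05). Gnao1, the gene of the Go subunit and the most abundant of the list by CPM, had a log2 fold change of -0.35 (edgeR: standard error 0.08, adjusted p = 0.00358), Gnaz -0.33 (edgeR: standard error 0.07, adjusted p = 0.00415) and Gnaq -0.34 (edgeR: standard error 0.08, adjusted p = 0.00610). Of 12 genes for adenylyl cyclases and phospholipases C beta, 6 were lower and none higher (median log2 fold change -0.30). Adcy2 was at 85.6, 93.7, 85.6 and 85.7 CPM in control and 32.4, 37.2, 41.9 and 41.5 CPM in dcKO_hGFAP-Cre replicates 1 to 4. The groups were far apart, and the log2 fold change was -1.19 (edgeR: standard error 0.09, adjusted p = 3.20e-06). Adcy1, the cyclase gene driven by calcium and calmodulin, had a log2 fold change of -0.84 (edgeR: standard error 0.14, adjusted p = 9.72e-04), Adcy8 -1.06 (edgeR: standard error 0.11, adjusted p = 2.27e-05), and Adcy9 -0.76 (edgeR: standard error 0.14, adjusted p = 0.00125). Plcb1, a phospholipase gene downstream of Gq/11, had a log2 fold change of -0.77 (edgeR: standard error 0.11, adjusted p = 1.63e-04), and Adcy3 -0.40 (edgeR: standard error 0.13, adjusted p = 0.0242).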

How the data were processed

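Each sample was a P3 cortex sequenced as RNA. The authors prepared libraries with the TruSeq RNA kit, used mm10 as the genome for alignment, obtained gene counts with a program given as FeaturesCount and deposited raw counts without normalization. The aligner, annotation and strand setting are not given in the sources used here, so counts of genes with overlapping exons are uncertain. Of 48709 listed genes, 48349 were matched to GENCODE release M21, which gave symbols, coordinates and exon lengths.

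Counts were TMM-normalized and tested in edgeR (version 4.0.16, under R 4.3.3) by its quasi-likelihood F test (robust fit, minimum count 10 in the low-count filter, no covariate), with Benjamini-Hochberg adjustment over 16525 genes and a threshold of 0.05. Alternatives were DESeq2 (version 1.42.0), limma-voom (limma version 3.58.1), DESeq2's size factors, library totals, no filter, a mean of at least 1 CPM, replicate or lane as a block, each replicate left out, dcKO_hGFAP-Cre replicates 1 and 2 left out, and an adjusted p under 0.01. Nothing in the labels says whether the samples shared litters.

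Values in every sample are given for receptor genes past the test with a mean of at least 0.5 CPM (the 16 largest changes) and for the gene with most CPM per kb in each of the 7 families; other genes are given where they share a receptor, cluster or coupling class. From other lists at most 6 genes past the test are named. Members and lists were chosen with earlier results of these data known. Motifs were searched in RefSeq promoter windows (GRCm38.p6), and the RE1 letters, the windows printed and the ratios between genes were chosen after seeing the data.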

Additional observations from a re-analysis of the deposited data

Results flagged for a closer look

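In 3 of 70 groups of 4 values (35 tested receptor genes in both groups), 1 sample stood apart from the other 3; chance gives about 3.5. Adra2c was at 9.99 CPM in control replicate 1 and at 7.39 to 7.64 CPM in the other controls. Chrna7 was at 17.2 CPM in control replicate 1 and at 12.3 to 12.8 CPM in the others. Htr5b was at 1.10 CPM in dcKO_hGFAP-Cre replicate 2 and at 0.362 to 0.409 CPM in the other dcKO_hGFAP-Cre samples. Without the sample that stood apart, the log2 fold change was 0.68, adjusted p = 0.00178 for Adra2c, -0.89, adjusted p = 0.00377 for Chrna7 and -2.77, adjusted p = 2.48e-05 for Htr5b (edgeR).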

How the results depend on the processing

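All values are from edgeR unless another tool is named. Over all alternatives the 15 lower receptor genes became 11 to 18, and 14 to 17 when 1 replicate was left out; the 5 higher ones became 4 to 7 with 1 replicate left out. Without dcKO_hGFAP-Cre replicates 1 and 2, 2 of 37 tested receptor genes were higher, and 1581 of 17229 genes tested were lower and 1388 higher. Fewer samples were compared there, and the cause was not tested further. At an adjusted p under 0.01, 3 receptor genes were higher, and 1938 of all genes were lower and 1611 higher, as a stricter threshold must give fewer. With 1 replicate left out, 2375 to 3273 of all genes were lower and 2199 to 3308 higher. With library totals in place of TMM the all-gene median on the log2 scale moved from 0.02 to 0.15, and 2102 genes were lower and 4584 higher; the cause was not tested. With a replicate block, 18 receptor genes were lower and 5 higher, and 2982 of all genes were lower and 2932 higher; the deviations of samples sharing a number correlated at 0.171, -0.0679, 0.213 and -0.0238 for replicates 1 to 4, so the numbers are not read as pairs. With the lane as a block, 18 receptor genes were lower and 5 higher, and 3242 of all genes were lower and 3208 higher. Adra1d, Chrm4 and Htr1f passed in addition with either block. With DESeq2, Chrna2 did not pass and Chrm2 and Chrm4 did. Without the low-count filter 49 receptor genes were tested, and Adra1d, Chrm4 and Htr1f passed in addition. Among the 35 tested receptor genes the sign changed for Htr6 alone, which passed under no alternative: its log2 fold change of -0.0855 became 0.0372 with library totals, 0.0454 without dcKO_hGFAP-Cre replicates 1 and 2, and -0.163 to 0.0106 (without control replicate 4) with 1 replicate left out; the cause was not tested.

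Ratios between receptor genes were a comparison chosen after seeing the data. The log2 ratio of all 41 pairs of tested genes that share a symbol stem was compared by an exact permutation test over samples. In 18 pairs the groups did not overlap, which gives the smallest exact p possible with 4 and 4 samples, 0.0286, and 0 pairs passed after adjustment over the 41 (smallest adjusted exact p = 0.0651). That value is set by how many pairs share the smallest p, so no pair could have passed by its own separation, and the outcome speaks neither for nor against a difference. The 5 ratios printed in the report were picked from these pairs after their values were seen. The RE1 letters were likewise noticed by eye in the windows of Hrh3 and Htr5a before they were searched for.

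Depth limits the scarce genes: 16 of 51 receptor genes were not tested, and 3 counts equal 0.0906 to 0.148 CPM. Overlapping exons on opposite strands and the unstated strand setting leave the counts of the tested genes Adra1d, Chrm1, Chrm2, Chrnb2, Drd5, Hrh2, Hrh3 and Htr1b uncertain.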

Other observations

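Receptor kinases and arrestins, which switch off receptors coupled to G proteins, had 3 of 7 genes lower (Grk2, Grk5 and Arrb1) and 1 higher (Arrb2) at an adjusted p under 0.05 (edgeR). Over all genes tested, 18.9% were lower and 18.6% higher. Of 25 tested glutamate receptor genes 11 were lower and 5 higher, with a median log2 fold change of -0.23. Of 16 tested GABA receptor genes 6 were lower and 6 higher, with a median of -0.08.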
